A study of Arabidopsis thaliana with 6 samples.

Results

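The report describes 9 genes for ethylene response factors, short ERFs, that are known to answer stress within minutes: ERF1, ERF1A, ERF2, ERF4, ERF5, ERF6, ERF11, ERF104 and AT5G51190, called ERF105 below. They were picked by their locus numbers, with their response to heat in these arrays already known, and each had 1 probe set that names that gene alone, so all 9 were measured among 20310 genes. RNA came from whole seedlings of Arabidopsis thaliana, accession Col-0, on 6 Affymetrix arrays. Of the 6 samples, 3 formed the control group, which stayed at 23 °C, and 3 formed the heat group, which spent 30 min at 37 °C, all of them in the light and raised on solid medium under 16 h days. The labelled ages differ from array to array, with 10 days the lowest and 15 days the highest and every heat array older than every control array, whereas the series text gives the same age of 10 days to all seedlings. Groups grown in the dark, which that text names, were not analysed here. The labels do not say whether the samples of a group were grown separately, so the p-values below measure only the spread between these arrays.

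ERF proteins share a DNA-binding domain that recognises the GCC box, a short element in the promoters of many defence genes. Ethylene, jasmonate, wounding, touch and MAP kinase signals raise their messages quickly, and the messages are short-lived. Some ERFs switch their targets on and others, which carry a short repression motif, switch them off. In seedlings they are known for defence, for arresting leaf growth under osmotic stress and for feedback on ethylene synthesis.

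The labels were checked first with heat-induced genes. HSP70B (AT1G16030), a cytosolic chaperone, lay between 4.55 and 4.62 on the log2 scale in the control arrays and between 13.65 and 13.70 in the heat arrays. HSP101 (AT1G74310), a chaperone that takes aggregates apart, measured 4.82, 4.87 and 8.22 in control arrays 1, 2 and 3 and 13.69, 13.83 and 13.71 in heat arrays 1, 2 and 3. HSFA2 (AT2G26150), a regulator of the heat response, measured 3.69, 3.72 and 7.30 in the controls and 12.83, 12.91 and 12.83 after heat. All 3 genes were far higher in every heat array, but control array 3 held raised levels of HSP101 and HSFA2, and the part of this in the ERF values of that array was not tested. Array medians ran from 4.39 to 4.53 and array minima from 2.53 to 2.66. Control arrays differed from each other more than heat arrays did: over all probe sets, the SD of the difference was 0.363 to 0.55 between pairs of controls and 0.187 to 0.277 between pairs of heat arrays. RCA, the activase of the carbon-fixing enzyme and a shoot marker, was between 13.32 and 13.60 on all arrays, while the 3 flower markers stayed between 3.03 and 3.65 and the 3 seed storage markers between 2.98 and 4.26. The other 3 shoot markers share their probe sets with further genes and were not used. Of the 5 root markers 1 was called: PYK10, an abundant root glucosidase, fell by 1.45 ± 0.13 (log2, ± SE; limma adjusted p = 0.000589). The summed linear level of the root markers was 2665 to 2795 in controls and 898.1 to 1235 in heat, but PYK10 makes up most of that sum. The other root markers differed by -0.29 to 0.17 on the log2 scale and were not called. Of these, WER, EXPA7 and RHD6 lay under the array medians on all arrays, where a fall might not show. PIN2, at 4.90 to 5.59, lay above the medians and differed by -0.29. The 3′ probe sets of actin exceeded its 5′ probe sets by 3.04 to 3.33 on the log2 scale in controls and by 1.97 to 2.10 after heat, and for 1 set of GAPDH probe sets the gap was 2.18 to 2.54 and 1.33 to 1.69. A second GAPDH set overlapped between groups, at -0.01 to 0.64 and -0.07 to 0.14. PYK10 and these gaps moved with the groups, and their part in the differences below was not tested. In whole seedlings, fewer cells of a type and less RNA per cell cannot be told apart.

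After heat, 8 of the 9 ERF messages lay lower on average by at least 2-fold, and the mean of ERF1 differed by -0.03 on the log2 scale. Mean differences of those 8 ran from -4.74 for ERF6 to -1.40 for ERF4 on the log2 scale, with a median of -2.47 over all 9 genes against 0.02 over all probe sets. In 7 of the 9 genes every heat array was below every control array. The same held for 20% of the 22746 probe sets tested, and the reverse order, seen in 0 of the 9, held for 18.8%. These genes were chosen for this contrast, so the values are a description, given with their errors and without a test.

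ERF6 (AT4G17490), an activator that MPK3 and MPK6 phosphorylate and that slows leaf growth in dry conditions, measured 6.67, 9.54 and 10.21 in control arrays 1, 2 and 3. In heat arrays 1, 2 and 3 it measured 4.25, 4.03 and 3.91. The groups did not overlap, and control array 1 was well under the other controls. The group means were 8.81 ± 1.88 and 4.06 ± 0.17 (SD, n = 3 each), a difference of -4.74 ± 0.85 (SE), or 26.8-fold lower. ERF105 (AT5G51190), a factor linked to cold acclimation, had nearly the same profile, with 6.86, 9.51 and 10.00 in the controls and 4.23, 3.87 and 4.26 after heat. Its difference was -4.67 ± 0.77, or 25.4-fold lower, again with control array 1 the lowest control and no overlap. ERF104 (AT5G61600), a substrate of MPK6 in immune signalling, measured 7.98, 10.21 and 10.54 in the controls and 6.19, 5.25 and 5.74 after heat. It was 14.4-fold lower (-3.85 ± 0.66). In these genes even the lowest control array exceeded the mean of the heat arrays by several-fold: the heat mean minus control array 1 was -2.60 for ERF6, -2.74 for ERF105 and -2.25 for ERF104.

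ERF5 (AT5G47230), the close relative that acts with ERF6 in chitin signalling and growth arrest, measured 4.47, 7.26 and 7.08 in the controls. After heat it measured 3.54, 4.09 and 3.78, a difference of -2.47 ± 0.71. It is the only one of the 9 in which control array 2 rather than 3 was the highest, and its groups did not overlap, though the gap to control array 1 was small. ERF2 (AT5G47220), an activator of jasmonate-responsive defence genes, measured 6.05, 7.35 and 8.56 in the controls and 5.19, 4.85 and 4.94 after heat (-2.33 ± 0.57). ERF1A (AT4G17500, listed as ERF-1 in RefSeq), a GCC-box activator induced by pathogens, measured 6.71, 8.00 and 8.79 in the controls and 6.31, 5.92 and 6.50 after heat (-1.59 ± 0.49). Both kept their groups apart, ERF1A by only a small margin between control array 1 and heat array 3.

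The repressors of the set went lower too, by unlike amounts. ERF11 (AT1G28370), which represses ethylene synthesis genes, measured 5.52, 7.62 and 9.58 in the controls, the widest control range of the 9 at 4.06. After heat it measured 4.41, 4.67 and 4.61, the narrowest heat range at 0.26, and the difference was -3.01 ± 0.91. ERF4 (AT3G15210), a repressor of ethylene and jasmonate responses, measured 6.88, 8.97 and 9.43 in the controls and 6.60, 7.80 and 6.67 after heat (-1.40 ± 0.68). Its groups overlapped, because heat array 2 lay above control array 1. That array was 1.17 above the mean of the other heat arrays for ERF4, and between 0.72 below and 0.43 above it for the other 8 genes. For ERF4 the heat mean was 0.15 above control array 1, so its lower mean after heat came from control arrays 2 and 3.

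ERF1 (AT3G23240), which the ethylene regulator EIN3 activates directly and which joins ethylene with jasmonate signals, stood apart from the rest. It measured 3.39, 3.48 and 3.56 in the controls and 3.39, 3.65 and 3.31 after heat, a difference of -0.03 ± 0.11 with overlapping groups. All of these levels lie under the array medians, and the files hold no measure of background, so whether the ERF1 message was present cannot be read from them. The heat levels of ERF5, ERF6 and ERF105 also lie under the array medians, so their folds may be understated and their heat ranges narrowed.

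**Figure D1:**
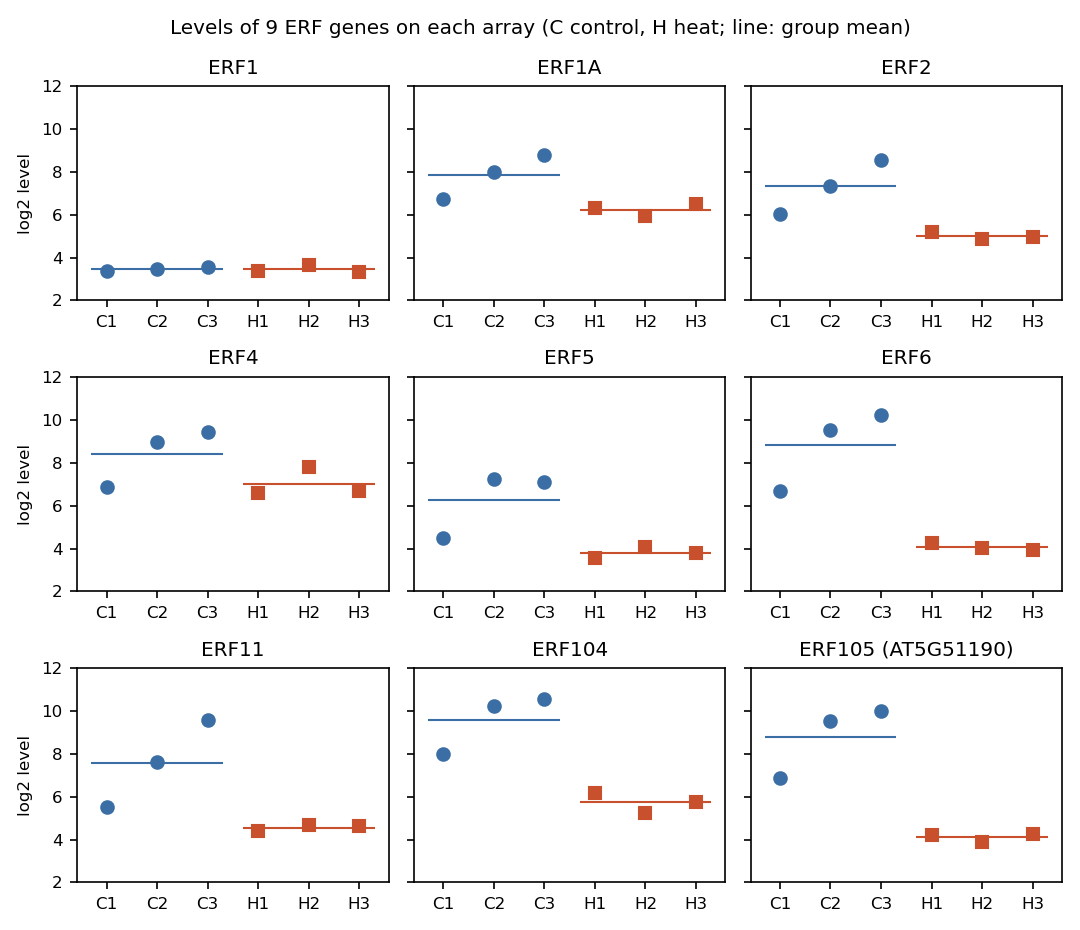
Log2 level (vertical axis) of the 9 ERF genes on each array, with circles for control arrays 1 to 3, squares for heat arrays 1 to 3 and a line at the group mean. Control array 1 is the lowest control in every panel, and in the panels other than ERF1 and ERF4 the squares lie below all circles.

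The control arrays themselves formed the second pattern. Control array 1 was the lowest control for 9 of 9 genes, as for 27.6% of all probe sets. For 8 of the 9 genes the 3 controls spanned at least 4-fold (range of 2.08 to 4.06 on the log2 scale), which held for 1.82% of probe sets. Among these 8 genes control array 2 exceeded control array 1 by 1.29 to 2.87 and control array 3 exceeded it by 2.08 to 4.06. Control array 3 exceeded control array 2 by less, from -0.18 in ERF5 to 1.96 in ERF11. Heat arrays were much closer to one another, with ranges of 0.26 to 1.20 for the 8 genes. The 9 genes were chosen with earlier results of these data known, the difference between controls among them. These counts are therefore a description. The cause of the spread was not tested.

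The size of each difference therefore depends on which controls stand in it. Against control array 1 alone the heat mean differed by -2.74 to 0.15 over the 8 genes, with a median of -1.0, and against control array 3 alone by -6.15 to -2.40, with a median of -4.20. Leaving out control array 1 moved 7 differences by over 1.5-fold, each to a larger fall, with ERF6 at -5.81, ERF105 at -5.63, ERF104 at -4.65, ERF11 at -4.03, ERF5 at -3.37, ERF2 at -2.97 and ERF4 at -2.17. Leaving out control array 3 moved 4 of them the other way, to -4.04 for ERF6, -4.06 for ERF105, -2.00 for ERF11 and -1.71 for ERF2. No single array left out turned the direction of any of the 8. When the age in the labels was added to the fit, 8 differences moved by over 1.5-fold, and the median became -4.60. The labelled age rises with the array number in each group, and every heat array is labelled older than every control array. That fit therefore cannot separate age from array order and hardly from group, and the series text gives all seedlings the same age.

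Not every gene with uneven controls behaved like the ERFs after heat. In all, 375 probe sets, or 1.65%, combined a control range of at least 4-fold with control array 1 as the lowest, the 8 ERF genes among them. The heat mean was below control array 1 for 49.1% of the 375, and every heat array was below every control array for 40.5%. The latter held for 7 of the 8 ERF genes, but they were chosen with their heat response known. Their share is therefore a description and cannot be weighed against that of the 375. For HSFA2 and HSP101 control array 2 was close to control array 1 and only control array 3 was raised, whereas for the 8 ERF genes control array 2 was at least 1.29 above control array 1. HSP70B stayed between 4.55 and 4.62 in the controls. The cause of these unlike patterns was not tested.

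Genes known to be induced by wounding or touch within minutes were uneven in the controls as well. The list held 17 genes, all measured. Control array 1 was the lowest control in 17 of 17, as for 27.6% of all probe sets. The controls spanned at least 4-fold in 17 of 17, with a median range of 3.57, where 1.82% of all probe sets did so. The list was chosen with earlier results of these data known, so these counts are a description. WRKY40, a stress-responsive repressor, measured 5.35, 10.41 and 11.62 in the controls and 3.85, 3.90 and 3.82 after heat. SZF1, a zinc finger protein of the salt response, measured 6.03, 10.41 and 11.37 in the controls and 5.68, 5.69 and 5.59 after heat. Calls outside the 9 genes needed an adjusted p under 0.05 in limma's test and a change of at least 2-fold, which 3.98% of all probe sets met in the lower and 2.8% in the higher direction. By that rule 0 of the 17 rose and 2 fell, while at an unadjusted p under 0.05, which 14.1% of all probe sets met in the higher and 18.1% in the lower direction, there were 0 and 9. CAF1a, a deadenylase that shortens messenger tails, fell by 4.58 ± 0.72 (adjusted p = 0.00609, from 3.49e-08 to 0.0684 over the alternatives). ATL2, a ubiquitin ligase of the chitin response, fell by 2.52 ± 0.60 (adjusted p = 0.0296, from 3.9e-06 to 0.134), a call lost without control array 2 or any 1 of the heat arrays. Without control array 1, 15 of the 17 were called lower, as were 4.8% of all probe sets in that fit, and 2.98% were called higher. Control array 1 was the lowest control for all of them, so leaving it out raised the control mean and this count is a description.

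These companions separated once control array 1 was taken as the reference. The heat mean was below control array 1 in 9 of the 17 genes and above it in 8, with a median of -0.04. CAF1a was lowest at -2.95 and WRKY40 stood at -1.49, while the touch genes TCH2, TCH3 and TCH4, which encode calmodulin-like proteins and a wall enzyme, stood at 0.37, 0.59 and 0.93. ZAT12, a zinc finger regulator of oxidative stress, was highest at 3.28 and differed by 1.59 ± 0.69 from the control mean without passing (adjusted p = 0.166). ERF6, ERF104 and ERF105 lay at the low end of this scale, and ERF4 lay near 0.

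**Figure D2:**
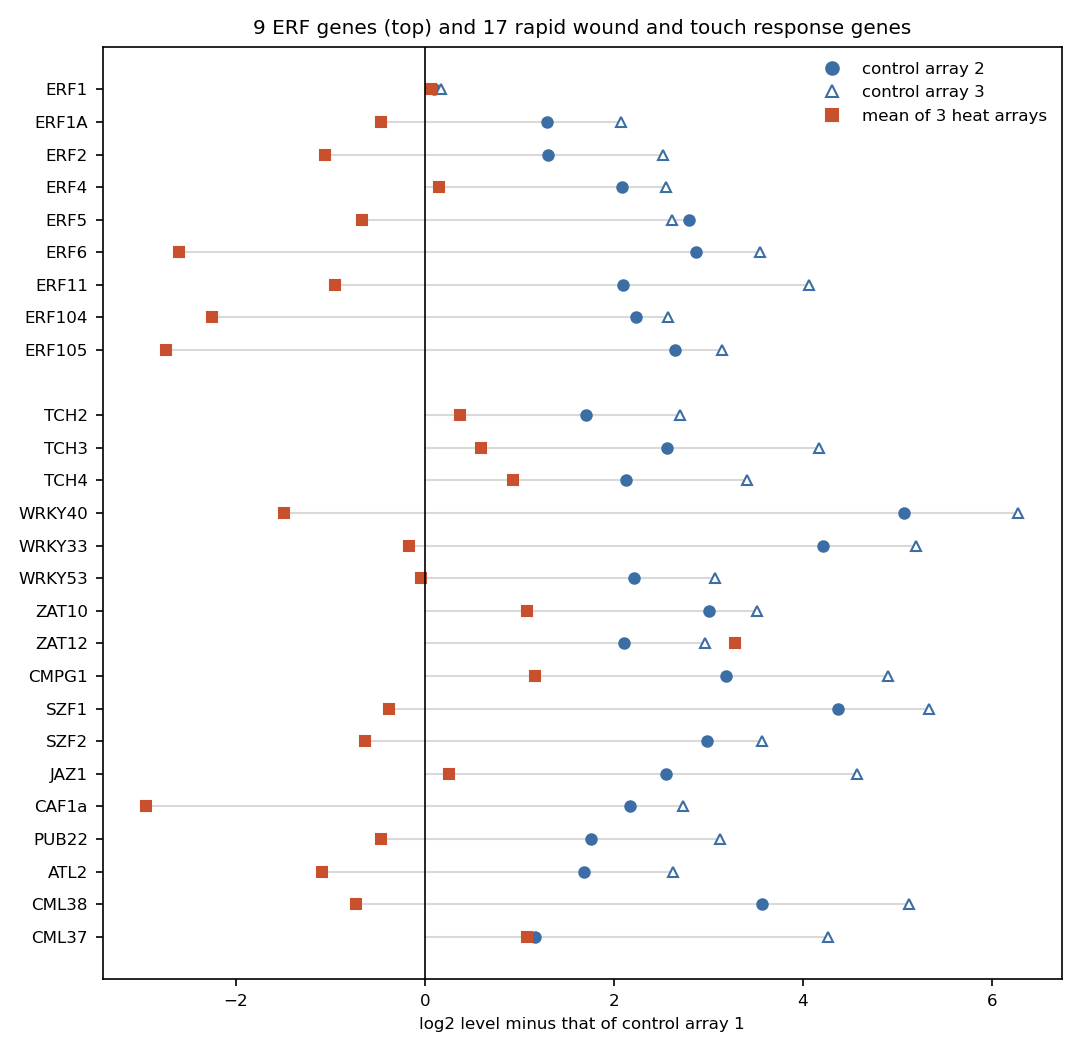
Log2 level relative to control array 1 (horizontal axis) for the 9 ERF genes above and the 17 rapid response genes below, with filled circles for control array 2, open triangles for control array 3 and squares for the mean of the 3 heat arrays. Blue symbols lie right of 0 in every row, while the squares run from -2.95 in CAF1a to 3.28 in ZAT12.

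Genes were also ranked by their whole profile. Each gene was centred on its own mean over the 6 arrays and compared with the mean profile of the 9 ERFs by the root mean square difference. The closest of all other genes was ATL2, which of the 8 named for the mean profile is the 1 in the rapid response list, with a difference of 0.120, then CAF1b, a second deadenylase, with 0.131, AT1G69890 with 0.203 and the transcription factor gene MYB73 with 0.206. EXO70H7, an exocyst subunit, followed with 0.215, EXL2 with 0.223, AT1G23710 with 0.226 and AT3G10720 with 0.229. Within the set ERF2 (0.283) and ERF5 (0.337) lay closest to the mean profile, and ERF1 (1.514), ERF6 (1.085) and ERF105 (1.028) farthest from it. Taken singly, ERF6 had CAF1a (0.505), UCP5 (0.551) and AR781 (0.576) as its nearest genes, and ERF105 had CAF1a (0.543), AR781 (0.552) and MYC2 (0.591), the last a regulator of jasmonate responses. They thus had CAF1a and AR781 in common. ERF104 was nearest to BT5 (0.361), RAV2 (0.366) and AT3G52800 (0.383). ERF5 was nearest to the ubiquitin ligase gene RDUF2 (0.147), to WRKY22 (0.152), a factor of immune signalling, and to AT1G23710 (0.191). ERF2 was nearest to AT2G27500 (0.111), GTR1 (0.139), a glucosinolate transporter, and AT1G67470 (0.144). ERF1A was nearest to MKS1 (0.163), a substrate of MPK4, AT1G35210 (0.171) and the kinase gene RIPK (0.175). For the repressors, ERF11 was nearest to AT1G19380 (0.197), AT2G22880 (0.242) and AT2G41640 (0.258), and ERF4 to TCH2 (0.265), CMPG2 (0.272) and GAE1 (0.273). The flat profile of ERF1 was nearest to GDH3 (0.022), AT3G24510 (0.025) and AT1G54700 (0.029). The likeness covers 6 arrays in only 2 groups and carries no test.

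Chromosome neighbours of the 9 genes were compared as well. By the order of loci in the RefSeq table, ERF6 and ERF1A are next to each other on chromosome 4, and ERF2 and ERF5 are separated by 1 gene on chromosome 5. The members of each pair went lower together, but ERF6 by -4.74 and ERF1A by -1.59. ERF104 is next to DEWAX (AT5G61590), which represses wax synthesis in the dark and is also a group IX ERF. In DEWAX control array 1 was the highest control and not the lowest, with 9.71, 7.90 and 7.99 where ERF104 had 7.98, 10.21 and 10.54, and it measured 7.48, 6.78 and 7.50 after heat (-1.28 ± 0.50, adjusted p = 0.128, not called). ERF11 is next to ERF12, another repressor of its group, which stayed between 3.43 and 3.61 on all arrays (0.05 ± 0.08, adjusted p = 0.698). ERF1 is next to TDR1 and 1 gene from ESE1, and those neighbours were as flat as ERF1, between 3.58 and 4.03 and between 3.06 and 3.38. The levels of ERF12, TDR1 and ESE1 lie under the array medians, so their flat values cannot show whether these messages responded.

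**Figure D3:**
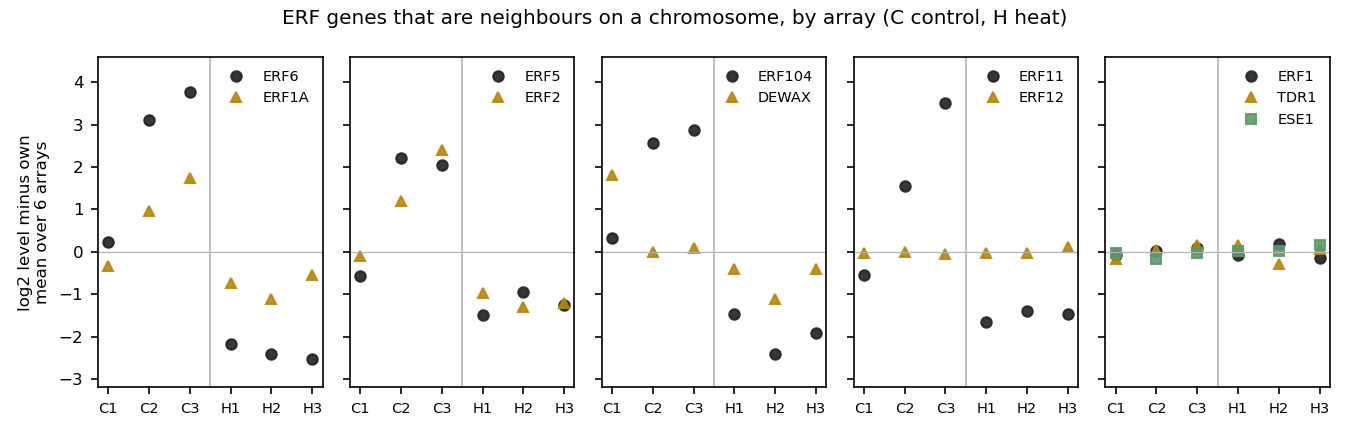
Log2 level of each gene minus its own mean over the 6 arrays (vertical axis) for ERF genes that are neighbours on a chromosome, 1 panel per neighbourhood, with control arrays left and heat arrays right of the line. Control array 1 is the lowest control for ERF104 and the highest for DEWAX, and ERF12 is flat beside ERF11, which spans 4.06 in the controls.

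The wider family was compared next, to see how far the response reached. Of 47 further ERF and DREB genes in 5 lists, 38 were measured, and 1 rose and 2 fell, with a median change of -0.06 (2.8% and 3.98% of all probe sets were called higher and lower). Many of the 38 lay under the array medians on all arrays, where a fall might not show. These lists were chosen with earlier results of these data known, so the counts are a description. Of the group IX genes besides the members 9 were measured, and 1 of them rose. AT4G18450, which has no symbol in RefSeq, measured 3.39, 3.42 and 3.69 in the controls and 6.99, 7.25 and 6.90 after heat. It rose by 3.55 ± 0.13 (adjusted p = 1.07e-05, and at most 0.0057 over the alternatives), or 11.7-fold, and its groups lay far apart. In the same group AT5G07580 fell by 1.19 ± 0.17 (adjusted p = 0.00465; 0.281 with the age covariate, the highest over the alternatives, and 1.16e-06 the lowest). ERF13 measured 3.82, 6.21 and 8.71 in the controls and 3.73 to 3.76 after heat, and was not called (-2.51 ± 1.09, adjusted p = 0.171). ORA59, which with ERF1 drives jasmonate and ethylene defence, differed by -0.36 ± 0.17 (adjusted p = 0.206).

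Among the other group VIII genes, which include the repressors, 9 were measured, 0 rose and 1 fell (2.8% and 3.98% of all probe sets were called higher and lower). ERF7, a repressor in abscisic acid responses, measured 6.43, 7.01 and 7.38 in the controls and 5.79, 5.40 and 5.70 after heat. It fell by 1.31 ± 0.24 (adjusted p = 0.0122; from 2.56e-06 to 0.112, with the age covariate, over the alternatives). ERF3 differed by -0.99 ± 0.16 (adjusted p = 0.00663), just under the fold minimum. None of the 5 group VII genes, the oxygen-sensing ERFs, and none of the 6 measured group X genes were called by limma in either direction. At an unadjusted p under 0.05 there was 1 higher in group VII and 0 in group X, and 0 lower in both (14.1% and 18.1% of all probe sets were higher and lower). RRTF1, a redox-responsive group X factor, measured 3.68, 8.63 and 10.52 in the controls and 4.46, 6.81 and 4.33 after heat, so that its groups overlapped (-2.41 ± 1.70, adjusted p = 0.384).

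Of the 9 measured genes of the DREB A-5 subgroup, 0 rose and 0 fell past the fold minimum in limma's test (2.8% and 3.98% of all probe sets). There were 1 higher and 1 lower at an unadjusted p under 0.05 (14.1% and 18.1% of all probe sets). Without the minimum, which 7.82% of probe sets passed in the higher and 11.5% in the lower direction, DEAR3 rose by 0.92 ± 0.11 (adjusted p = 0.00174). ORA47, a regulator of jasmonate synthesis, measured 5.02, 8.41 and 8.61 in the controls and 4.40, 5.57 and 4.16 after heat (-2.64 ± 0.97, adjusted p = 0.111). DREB26 had yet another order, with 4.92, 7.02 and 9.55 in the controls and 8.11, 5.12 and 8.01 after heat, where heat array 2 lay about as low as control array 1. Heat array 2 was thus out of line with heat arrays 1 and 3 in ERF4, RRTF1 and ORA47, where it was the higher, and in DREB26, where it was the lower. Without control array 1, 8 of the 38 family genes were called lower, against 4.8% of all probe sets in that fit: ERF13, AT5G07580, ERF3, ERF7, ERF8, RRTF1, AT1G19210 and ORA47. In these genes except AT5G07580 control array 1 was the lowest control. Leaving it out raised their control mean, so this count is a description.

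**Figure D4:**
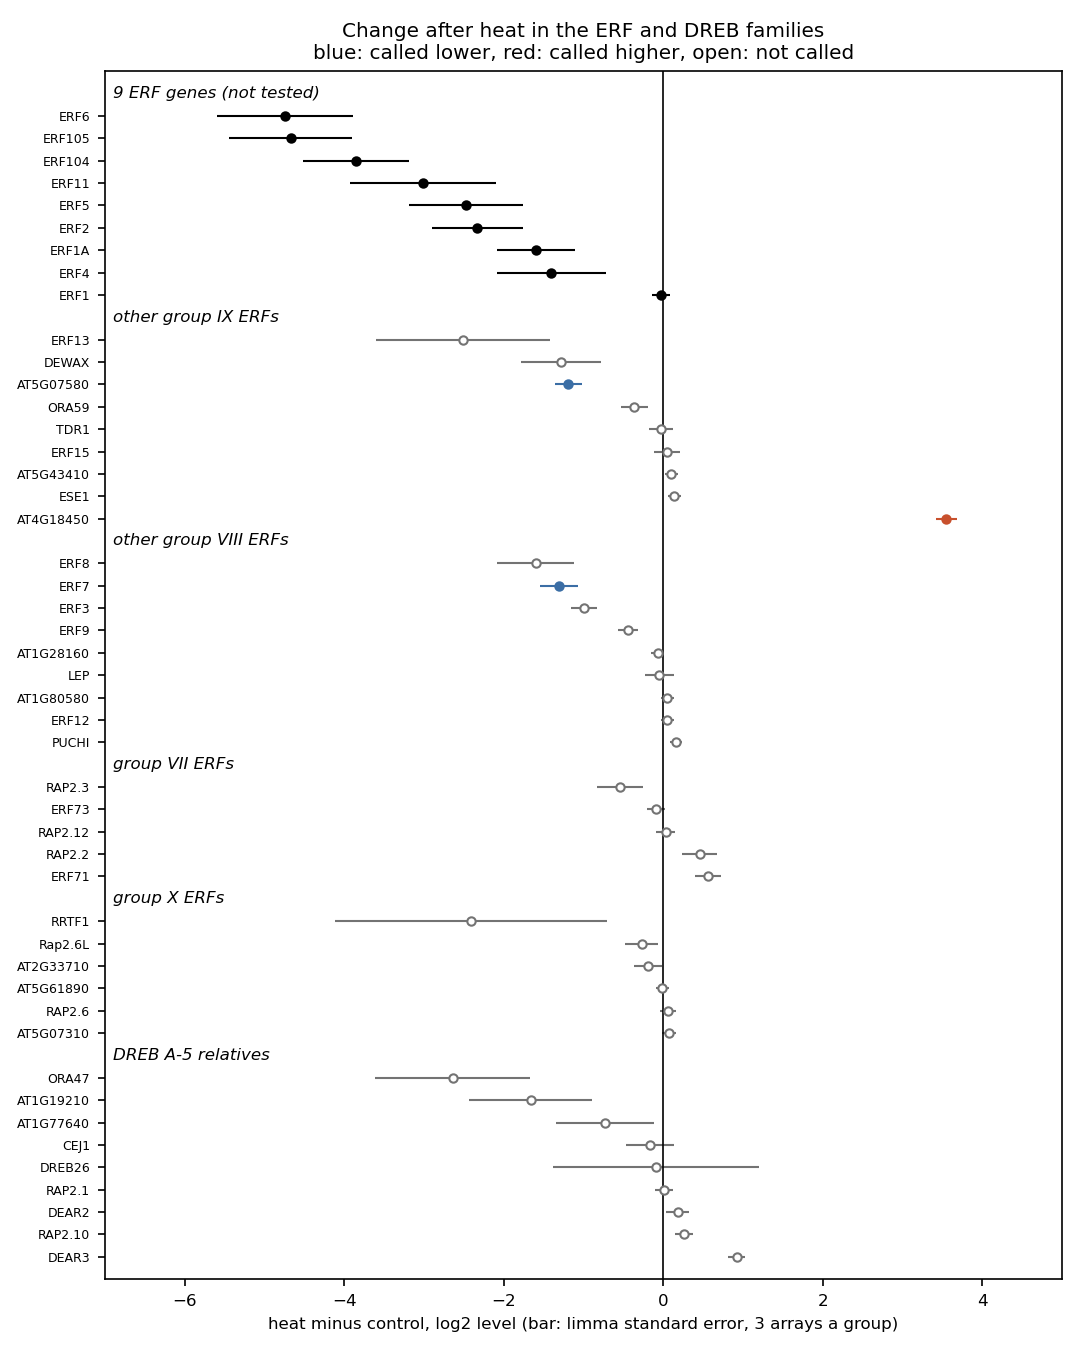
Heat minus control on the log2 scale (horizontal axis, with limma standard errors, 3 arrays a group) for the 9 ERF genes in black, which were not tested, and for 38 relatives by list. AT4G18450 is the only filled symbol on the positive side, and most relatives lie close to 0.

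Upstream of the ERFs, 5 of 14 genes of ethylene signalling and of the MAP kinase cascades fell and 0 rose, against 3.98% and 2.8% of all probe sets. This list too was chosen with earlier results of these data known, so its counts are a description. All 14 were measured, with a median change of -1.04, and 8 fell without the fold minimum (11.5% of all probe sets). At an unadjusted p under 0.05, 0 were higher and 10 lower, against 14.1% and 18.1% of all probe sets. EIN2 (AT5G03280), the membrane protein that carries the ethylene signal to the nucleus, measured 7.0, 6.92 and 7.04 in the controls and 5.12, 5.03 and 4.81 after heat. Its controls were close together, unlike those of the ERFs, and it fell by 2.0 ± 0.10 (adjusted p = 4.95e-05, and at most 0.0181 over the alternatives). EIL1, the partner of EIN3, fell by 1.25 ± 0.12 (adjusted p = 0.000688; 0.106 with the age covariate, the highest over the alternatives). EIN3 itself differed by -0.81 ± 0.10 (adjusted p = 0.00231) and the kinase gene CTR1 by -0.67 ± 0.09 (adjusted p = 0.00412), both under the fold minimum. EBF1 and EBF2, whose products tag EIN3 for degradation, fell by 1.34 ± 0.24 (adjusted p = 0.0105, at most 0.0775 over the alternatives) and 1.24 ± 0.25 (adjusted p = 0.0158, at most 0.251). The call on EBF2 was lost without control array 3, where the change was -0.96, and without heat array 3.

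Among the kinases, MKK9, which activates MPK3 and MPK6, had the order of controls seen in the ERFs, with 6.39, 7.76 and 8.46, and measured 5.35, 5.13 and 5.14 after heat. It fell by 2.33 ± 0.48 (adjusted p = 0.0179, at most 0.107 over the alternatives), a call lost without control array 2 or any 1 of the heat arrays. MPK3 measured 8.00, 10.07 and 11.47 in the controls and 7.43, 7.51 and 7.41 after heat, and was not called (-2.40 ± 0.78, adjusted p = 0.0816). MPK6, which phosphorylates ERF104 and ERF6, lay between 6.73 and 6.94 in the controls and between 6.48 and 6.69 after heat (-0.19 ± 0.10, adjusted p = 0.249). Without control array 1, 8 genes of this list were called lower, with MPK3, MKK4 and MKK5 added, where 4.8% of all probe sets were called lower. For the added genes control array 1 was the lowest control. Leaving it out raised their control mean, so this count is a description.

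Downstream, 6 of 8 defence genes with GCC boxes were measured, and 0 rose and 0 fell in limma's test, with or without the fold minimum. With the minimum, 2.8% and 3.98% of all probe sets were called higher and lower. Their median change was 0.11, and at an unadjusted p under 0.05 there was 1 higher and 0 lower (14.1% and 18.1% of all probe sets). PDF1.2, the plant defensin used as the marker of the ERF1 branch, lay between 4.11 and 4.47 on all arrays (0.04 ± 0.13, adjusted p = 0.887). That is close to the array medians, where a fall might not show. PR4, a chitin-binding protein, measured 10.15, 8.66 and 10.13 in the controls and 9.46, 7.99 and 9.76 after heat (-0.57 ± 0.58, adjusted p = 0.55). In both groups its second array was the lowest, as for the other measured genes of this list except PDF1.1. OSM34, an osmotin, differed by 0.79 ± 0.26 (adjusted p = 0.0849) and was called higher without control array 1, as were 2.98% of all probe sets (adjusted p from 0.0222 to 0.443 over the alternatives).

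Of 4 genes known as targets of ERF6 under osmotic stress, 0 rose and 0 fell in limma's test with all arrays (2.8% and 3.98% of all probe sets). Their median change was -1.88, and 4 were called lower without control array 1 (4.8% of all probe sets in that fit). Control array 1 was the lowest control in 4 of 4, so leaving it out raised the control mean. The list was also chosen with earlier results of these data known, so these counts are a description. At an unadjusted p under 0.05, 0 were higher and 2 lower (14.1% and 18.1% of all probe sets). GA2OX6, which inactivates gibberellin, measured 4.53, 5.66 and 8.05 in the controls and 4.35, 4.71 and 4.04 after heat (-1.71 ± 0.82, adjusted p = 0.209). MYB51, a regulator of indole glucosinolates, measured 4.32, 5.71 and 7.87 in the controls and 3.95, 3.76 and 4.04 after heat (-2.05 ± 0.80, adjusted p = 0.132). In both, control array 1 was about as low as the heat arrays, which ERF6 did not show. The other genes of that list, WRKY33 and ZAT10, are also in the rapid response list.

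**Figure D5:**
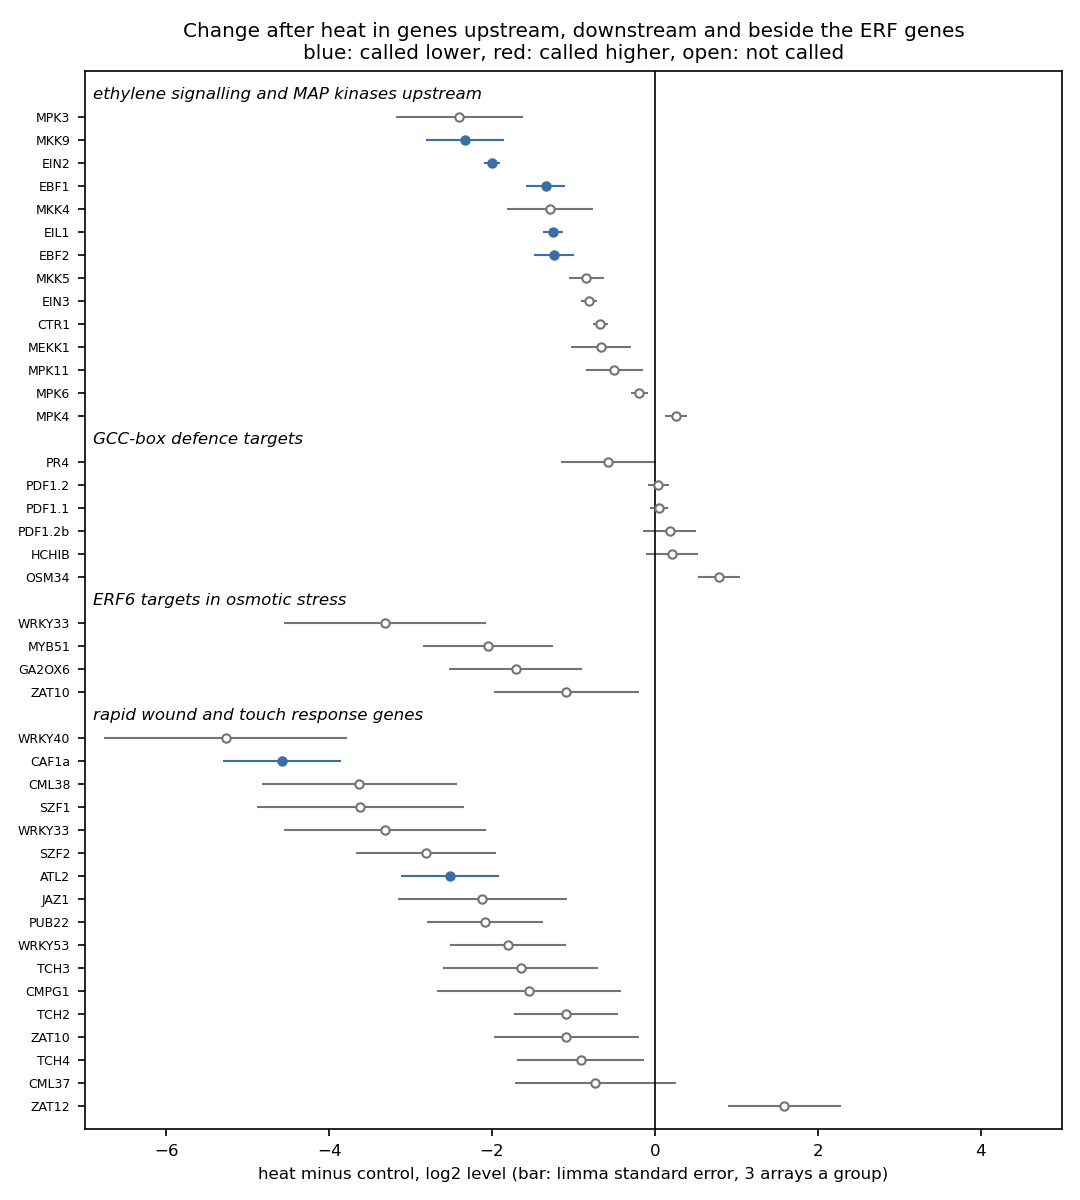
Heat minus control on the log2 scale (horizontal axis, with limma standard errors, 3 arrays a group) for genes upstream, downstream and beside the 9 ERF genes, by list. Filled symbols mark calls at an adjusted p under 0.05 with at least 2-fold, which are 5 upstream genes and 2 rapid response genes, all lower, while the GCC-box targets lie around 0.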

How the data were processed

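The values are log2 levels as the authors deposited them, 1 column per array, and RMA, which corrects background, equalises array distributions and summarises probe sets on the log2 scale, is named in the submitters' processing notes. They were used without further normalization, so a change in total messenger RNA would not show. The ratio columns of the authors' deposited table, control over heat per replicate number, were within 0.0001 of the array differences after taking log2 and were used only for that check, and all 136860 level cells equal the value table. Of 22810 probe sets, 64 controls were left out. Gene identifiers were matched to the RefSeq table of TAIR10.1, which named 20310 genes, and the probe set with the highest mean stood for a gene. No genome or promoter sequence was used here.

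The 2 groups were fitted in R 4.3.3 by limma 3.58.1 with its moderated test, with no term besides group and 2-sided p-values, adjusted by Benjamini-Hochberg over 22746 probe sets and called at an adjusted p under 0.05 with at least 2-fold. Exact permutation of 3 against 3 arrays cannot go below 0.1. The fit was tested on simulated data. The 9 genes and the lists were chosen with earlier results of these data known. The text names the 9 genes, up to 4 called genes per list, the heat checks and the genes of nearest profile (8 for the mean, 3 per gene); other list genes, EBF2 among them as the fifth called upstream gene, were named after their values were seen. The main fit did not pair the arrays by replicate number. Alternatives changed the scaling, filter, prior, weights, covariates, probe set choice, fold minimum and arrays.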

Additional observations from a re-analysis of the deposited data

How the results depend on the processing

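The median change of the 9 ERF genes ran from -2.92, with arrays scaled to the Bacillus controls, to -2.37, with arrays centred on their median, over the alternatives that kept all arrays, except with the labelled age as a covariate, where it was -4.60. The scaling to the Bacillus controls moved the median of all probe sets from 0.02 to -0.43 and centring moved it to 0.12. Leaving out 1 array at a time gave -3.37 to -2.00. With the dimmest 25% of probe sets left out, ERF1 was not in the fit. The difference of ERF1 was 0.08 with centring and -0.48 with the Bacillus scaling, and the other 8 stayed negative under each scaling. The counts of calls moved more. Over all probe sets 637 were higher and 906 lower; with the age covariate there were 359 and 227, with no fold minimum 1778 and 2614, 469 and 2731 after scaling to the Bacillus controls, 697 and 754 with centring and 551 lower without moderation of the spread. Leaving out 1 array gave 607 to 677 and 730 to 1092. Of the other family genes 1 was higher and 2 lower; this became 2 higher with centring, 2 and 4 with no fold minimum, and 10 lower after scaling to the Bacillus controls, 4 with array weights, 1 without moderation of the spread and 1 with the age covariate. Leaving out 1 array gave 1 to 2 higher and 2 to 8 lower. Of the upstream, target and rapid response genes 0 were higher and 7 lower; this became 1 higher and 29 lower after scaling to the Bacillus controls, 14 lower with array weights, 2 without moderation of the spread and 1 with the age covariate. Leaving out 1 array gave 0 to 1 higher and 4 to 25 lower, 25 being without control array 1. The cause of these shifts was not tested. The labels do not say whether same-numbered arrays were paired. Deviations of same-numbered arrays correlated at 0.044, 0.192 and -0.077 across probe sets. Those of arrays with unlike numbers correlated at -0.147 to 0.155, so these values cannot exclude pairing. With the replicate numbers as a block the counts were 632 higher and 876 lower over all probe sets, 1 and 2 in the family and 0 and 7 in the other lists, and the ERF median was -2.47. An array gives no counts, so 3 arrays a group limit the precision, and levels near the array minimum understate folds.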
